A study of Mus musculus with 6 samples.

Results

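The nuclear receptor superfamily other than the glucocorticoid receptor was described in mouse lung lacking Carm1 and in wild-type lung. The members were 39 receptor genes given by name, and every probe set carrying the symbol of one of them was taken. Of the 39 genes, 37 had a probe set with a single gene symbol, 102 probe sets in all of the 45101 on the array. Nr1h2 and Nr2e3 were not analysed here. The choice used no measured value, and it put the steroid, thyroid and lipid receptors beside the orphan receptors.

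Carm1 knockout lungs at embryonic day 18.5 (3 arrays) were compared with wild-type lungs (3 arrays), 1 array for each labelled sample. Carm1 encodes an arginine methyltransferase that nuclear receptors recruit through their coactivators. The study's design text gives day 18.5 for both genotypes, but the wild-type labels call the tissue neonatal, so genotype and a difference in age cannot be told apart from the labels. Strain, litter, the construction of the null allele and whether the samples came from separate animals are not stated in the sources, so each p-value measures only the spread between these samples. RNA of whole lung was hybridised to Affymetrix Mouse Genome 430 2.0 arrays, on which a probe set of short oligonucleotides gives 1 signal, in arbitrary units.

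Nuclear receptors are transcription factors with a zinc-finger domain that binds DNA and a domain that binds a lipophilic ligand. Most read variants of a 6-base half-site, alone or in pairs, and many of the metabolic receptors do so only as a pair with a retinoid X receptor. With ligand they exchange corepressors for coactivators of the p160 family, to which CARM1 binds. In the lung before birth, glucocorticoid, thyroid hormone and retinoid signals are known to time the thinning of the airspace walls and the start of surfactant production.

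The targeted gene was measured first. Carm1 had signals of 394.9, 374 and 511 in Carm1 knockout lungs, against 814, 678 and 865 in wild-type lungs. The groups did not overlap, and Carm1 in knockout lungs stood at 54.0% of wild type (log2 −0.89, SE 0.16). By limma the adjusted p was 0.105, and an exact permutation test, two-sided, gave 0.1, which is as low as 3 arrays against 3 allow. The probe set is of a type that can bind related transcripts, and whether it lies inside the deleted stretch is unknown here.

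The arrays differed in more than genotype. The summed signal of 9 liver marker genes, 9 of 9 measured, was highest on knockout replicate 1 and wild type replicate 2, at 193729 and 131740. On knockout replicates 2 and 3 the sums were 4007 and 18047, and on wild type replicates 1 and 3 they were 5066 and 339. Albumin (Alb) alone had signals of 46294, 1118 and 4446 in knockout lungs and 2116, 39146 and 104 in wild-type lungs. Heart muscle markers summed to 39062 on knockout replicate 2 and to between 4180 and 15886 on the other arrays. Added bacterial control RNA had median signals of 459 and 315 on wild type replicates 1 and 3 and of at most 16.1 elsewhere. Of the lung markers, the surfactant gene Sftpc lay between 45812 and 57628 and the lung transcription factor Nkx2-1 between 226 and 489.5 over the arrays. Summed endothelial markers ran from 18332 to 20837 in knockout lungs and from 23605 to 27001 in wild-type lungs, with 7 of 9 lower at an unadjusted p under 0.05. Summed proliferation markers ran from 21720 to 30687 in knockout lungs and from 15034 to 19753 in wild-type lungs, with 7 of 7 higher at that level. Over all genes tested 7.36% were lower and 9.14% higher at that level, and 10.5% were lower without overlap. Cd4 of the lymphocyte list and Amh of the gonad list were the markers at or under the median of genes of other organs. Lung epithelial sums overlapped, at 155236 to 193779 in knockout and 179128 to 246878 in wild-type lungs. Of 12 lung epithelial markers 9 were lower in knockout lungs, 2 of them at an unadjusted p under 0.05 and without overlap, and the median was −0.19. Those 2 are known from type I cells, Aqp5 at 746 ± 252 in knockout and 2441 ± 840.5 in wild-type lungs (adjusted p = 0.0934) and Ager at 23063 ± 3484 in knockout and 34088 ± 8622 in wild-type lungs (adjusted p = 0.262). In whole tissue, fewer cells of a type and less RNA per cell cannot be told apart, and the part of these differences in the receptor values below was not tested unless a value is given.

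Many of the receptors gave low signals in this tissue. A probe set was tested when its average log2 signal exceeded the 40th percentile, which corresponds to a signal of 59.7. By this filter 26 of the 37 receptor genes (70.3%) had at least 1 tested probe set, against 71.2% of all 18193 genes measured. The 11 genes with none were Rorb, Nr1h4, Nr1i3, Rxrg, Hnf4g, Nr2e1, Esr2, Pgr, Nr4a3, Nr5a1 and Nr0b1, a group that includes receptors known from brain, liver, intestine, gonad and adrenal. Of 23 genes characteristic of retina, sperm, pituitary and other organs, 20 lay below the same filter and 3 (Lhb, Tshb and Cpa1) above it. The median signal of those 23 was 16.6 and the highest 775.8. A signal past the filter is therefore no proof of expression, and one below it no proof of absence. Signals of different probe sets depend on the probes themselves and give no order between receptors.

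No receptor probe set passed the test of genotype. Of 56 tested probe sets, 0 had an adjusted p under 0.05 by limma, where 0.0296% of all 27022 tested probe sets passed, and the smallest adjusted p was 0.268. At an unadjusted p under 0.05 there were 5 of 56, against 13.6% of all tested probe sets. Of the 5, 1 was higher in knockout lungs and 4 lower, against 7.32% and 6.31% of all tested probe sets. The groups did not overlap in 5 of 56, against 20% of all, with 2 higher (10.7% of all) and 3 lower (9.36% of all). Taking the probe set of highest mean signal for each gene, 0 of 26 receptors passed the adjusted threshold, against 0.0541% of all genes. There were 2 of 26 receptors that had an unadjusted p under 0.05, against 16.5% of all genes. The groups did not overlap in 3 of 26, against 23.1%, with 2 higher (12.6% of all genes) and 1 lower (10.5%). These shares lie below the background, except that of probe sets lower at an unadjusted p under 0.05, where 4 of 56 is 7.14%. The median log2 difference over the 26 receptors was 0.08, with 16 higher and 10 lower, against a median of 0.03 over all 12947 genes tested. The receptor median ran from 0.02 to 0.15 over the alternatives, the highest without knockout replicate 1. The typical size of a difference was also that of the other genes, with a median absolute value of 0.18 for both.

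**Figure D1:**
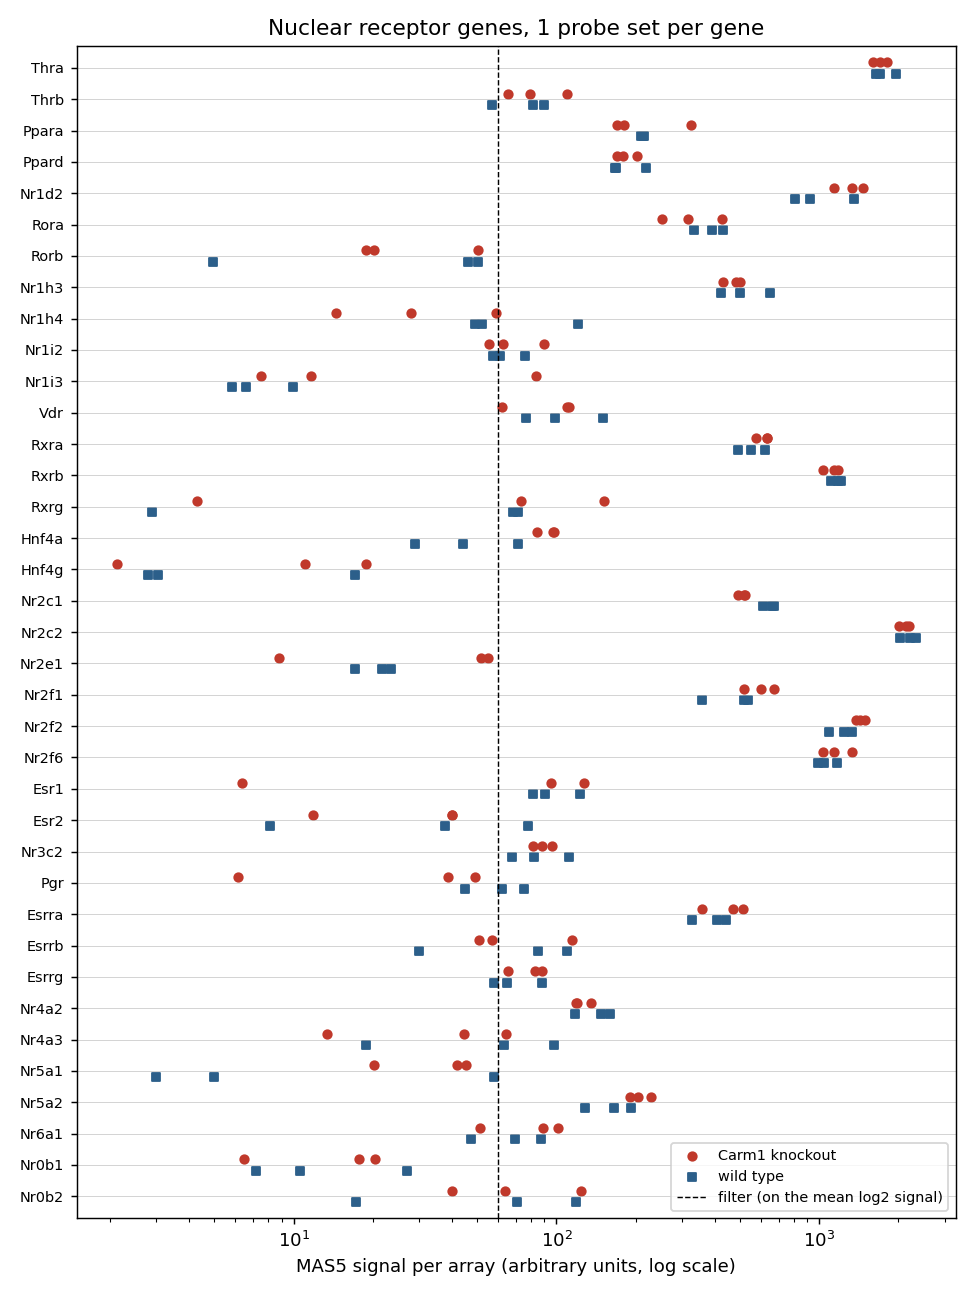
Signal of each of the 37 measured receptor genes on every array (log axis, arbitrary units), with Carm1 knockout arrays as red circles above the wild-type arrays as blue squares. The dashed line is the filter of 59.7, and receptors around or below it scatter more between arrays of 1 group than those above.

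How far a genotype difference was bounded varied with the signal. In 20 of the 26 receptors the 95% confidence interval of the fold change lay within 2-fold either way, and in 8 it lay within 1.5-fold. Those 8 were Thra, Rxra, Rxrb, Nr2c2, Nr2f2, Nr2f6, Ppard and Nr1h3. The receptors whose interval reached beyond 2-fold were Vdr, Hnf4a, Esr1, Esrrb, Nr6a1 and Nr0b2, all with low signals.

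Among the thyroid hormone receptors, Thra, which encodes the form found in most tissues, averaged 1702 ± 104 in knockout lungs and 1764 ± 169 in wild-type lungs (SD, n = 3 each). The knockout level was between 0.815 and 1.15 times the wild-type level (95% interval). Its other 2 probe sets differed by 0.08 and 0.38 on the log2 scale, and neither passed. Thrb, the form known from liver, pituitary and inner ear, averaged 84.7 ± 22.6 in knockout and 75.9 ± 16.9 in wild-type lungs, near the filter.

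The retinoid X receptors are the shared partners of the thyroid, vitamin D, PPAR and LXR receptors. Rxrb averaged 1116 ± 72.9 in knockout lungs and 1166 ± 54.4 in wild-type lungs, and its interval ran from 0.81 to 1.13 times wild type. Rxra averaged 612.6 ± 34.5 in knockout and 554 ± 66.6 in wild-type lungs at the probe set of highest signal. A second Rxra probe set went the other way, at 223 ± 53.9 in knockout and 283 ± 58.4 in wild-type lungs, without passing. Rxrg, known from muscle and brain, ranged from 4.3 to 151 in knockout and from 2.88 to 71.1 in wild-type lungs and was not tested.

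The fatty acid receptors showed no difference past the threshold. Ppard averaged 184 ± 16.4 in knockout and 185 ± 29.2 in wild-type lungs (log2 −0.0036, SE 0.21). Ppara, which drives fatty acid oxidation in liver and heart, averaged 226 ± 87.2 in knockout and 213 ± 2.9 in wild-type lungs. The wide spread among knockout lungs came from 326 on replicate 1, the array with the highest liver sum, against 169.998 and 181 on replicates 2 and 3. Wild type replicate 2, also high in liver markers, did not stand out, at 210.4 against 212.5 and 216.1 on wild type replicates 1 and 3. The other 2 tested Ppara probe sets differed by −0.54 and 0.33 on the log2 scale.

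Among the sterol and bile acid receptors, Nr1h3, the oxysterol receptor LXR alpha of macrophages and liver, averaged 470.7 ± 35.7 in knockout and 523 ± 115 in wild-type lungs. Nr1h4, the bile acid receptor FXR, lay below the filter, and its highest signal in each group, 59.03 in knockout and 121 in wild-type lungs, was on the array with the high liver sum. Vdr, the vitamin D receptor, averaged 94.7 ± 28.1 in knockout and 108 ± 37.6 in wild-type lungs. Nr1i2, the xenobiotic receptor PXR, averaged 69.3 ± 18.2 in knockout and 64.7 ± 9.9 in wild-type lungs, with an interval from 0.605 to 1.84 times wild type.

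The clock-linked receptors compete for the same response elements, RORs as activators and REV-ERBs as repressors. Nr1d2, which encodes REV-ERB beta, had signals of 1332, 1464 and 1132 in knockout lungs, against 811, 923 and 1361 in wild-type lungs. The groups overlapped through wild type replicate 3, and the difference of 0.37 (log2, SE 0.19) had an adjusted p of 0.441. Its second tested probe set, near the filter, differed by 0.07.

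Rora was measured by 9 probe sets, of which 7 were tested. Of these, 6 were lower and 1 was higher in knockout lungs, with differences of unlike size. The probe set of highest signal, 1424034_at, averaged 332 ± 88.5 in knockout and 386 ± 48.4 in wild-type lungs, and 3 more differed by −0.14, −0.10 and −0.03 on the log2 scale. Probe set 1436325_at had signals of 196, 105 and 103 in knockout lungs, against 172, 233 and 232 in wild-type lungs. Knockout replicate 1 lay within the wild-type range there, and the difference was −0.71 (SE 0.30, adjusted p = 0.347). Probe set 1458129_at had signals of 78.9, 146 and 69.4 in knockout lungs, against 168, 150.2 and 159 in wild-type lungs. The groups did not overlap, knockout being lower, with a difference of −0.77 (SE 0.32, adjusted p = 0.341, exact permutation p = 0.1). The remaining tested probe set, near the filter, differed by 1.19 in the opposite direction (adjusted p = 0.516). Its wild-type mean of 53.6 lay below the filter, against 95.3 in knockout lungs. It was thus kept through the knockout arrays alone, and its direction carries little weight. Which Rora transcripts each probe set reads is not known here.

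The testicular receptors Nr2c1 (TR2) and Nr2c2 (TR4) are related orphan receptors that can bind DNA as a pair. Nr2c1 had the smallest p of all members, at probe set 1439490_at, with signals of 490.1, 516 and 519 in knockout lungs, against 663, 672 and 613 in wild-type lungs. The groups did not overlap, and the knockout level was 0.783 times the wild-type level (log2 −0.35, SE 0.12, adjusted p = 0.268, exact permutation p = 0.1). Without knockout replicate 1 and wild type replicate 2 the difference was −0.30 (unadjusted p = 0.135). The other 4 tested Nr2c1 probe sets differed by −0.19, 0.12, −0.35 and 0.21, none at an unadjusted p under 0.05. Nr2c2 averaged 2117 ± 94.7 in knockout and 2185 ± 148 in wild-type lungs. Its highest array was only 1.15 times its lowest, the narrowest range of any member probe set.

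The COUP transcription factors mark mesenchyme and vein. Nr2f2, known for specifying venous and lymphatic endothelium and expressed in lung mesenchyme, was read in 2 directions by its probe sets. At 1416158_at it had signals of 1379, 1495 and 1424 in knockout lungs, against 1088, 1328 and 1237 in wild-type lungs. All knockout arrays lay above all wild-type arrays, at 1.18 times the wild-type level (log2 0.24, SE 0.11, adjusted p = 0.391). The difference was 0.11 among the arrays without added bacterial RNA, where replicate 2 was the only wild-type array. At 1436475_at it had signals of 635, 662 and 644 in knockout lungs, against 801, 790.01 and 795 in wild-type lungs. Here the knockout arrays were all the lower ones, at 0.813 times the wild-type level (log2 −0.30, SE 0.11, adjusted p = 0.289). The 3 other tested probe sets differed by 0.15, −0.05 and 0.42, so no direction for Nr2f2 as a gene was shown. Nr2f1 averaged 596 ± 77.6 in knockout and 470.5 ± 97.4 in wild-type lungs (log2 0.35, SE 0.19, adjusted p = 0.451). Nr2f6 averaged 1169 ± 154 in knockout and 1064 ± 91.3 in wild-type lungs. Beside these stand the summed mesenchymal markers, at 76735 to 91572 in knockout and 71188 to 78170 in wild-type lungs, and the endothelial sums given above.

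**Figure D2:**
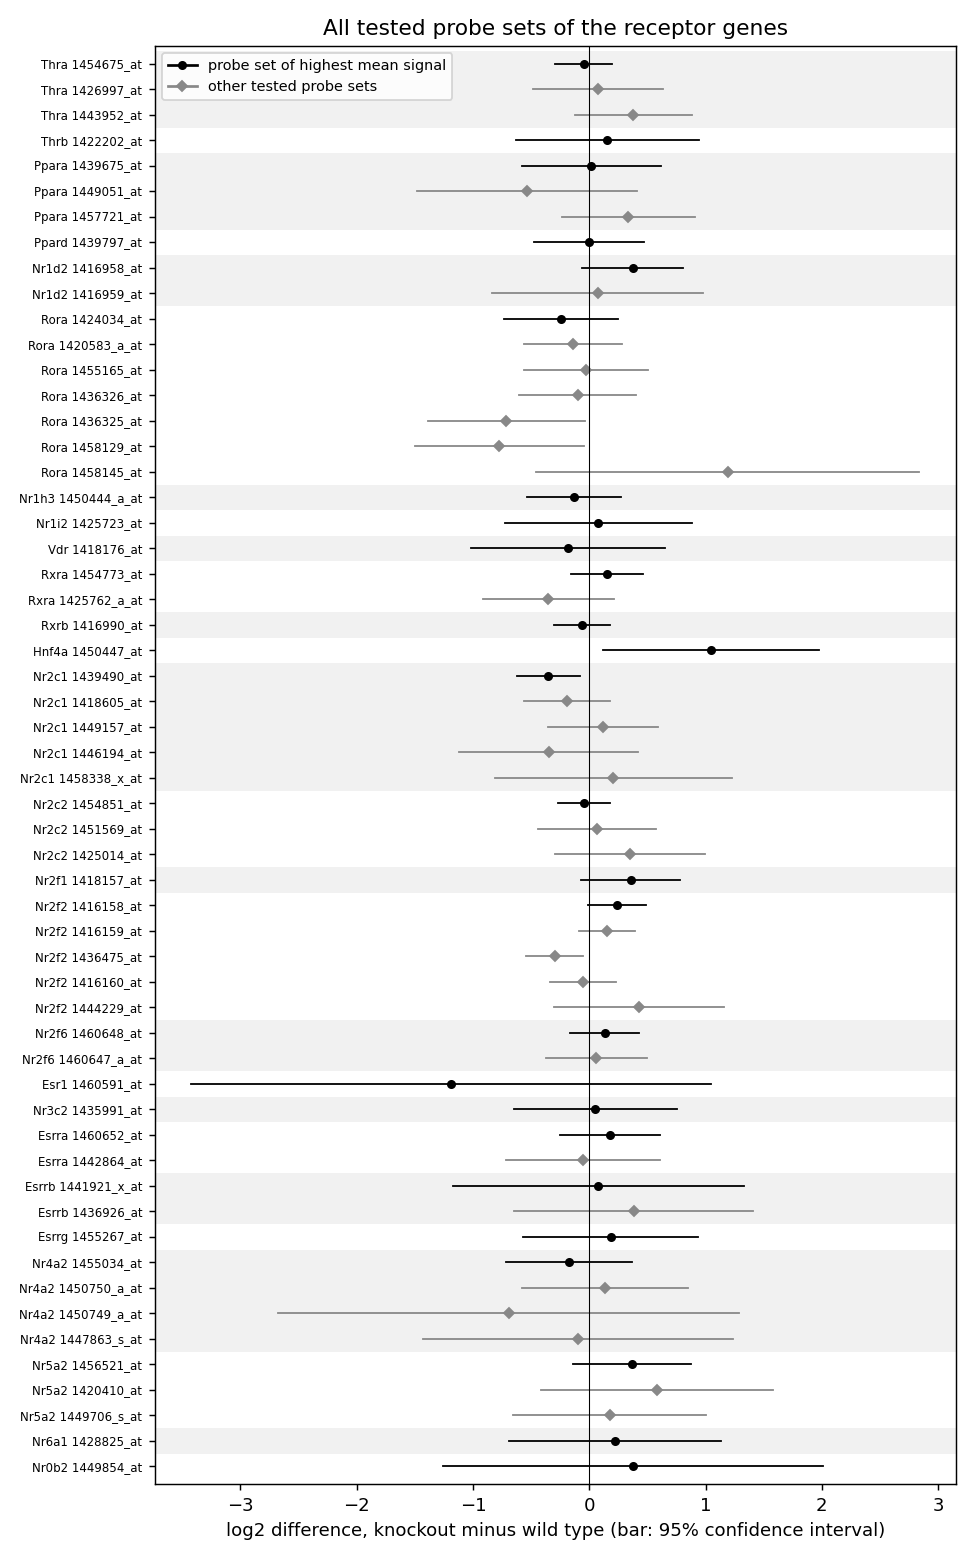
Log2 difference, Carm1 knockout minus wild type, with its 95% confidence interval for the 56 tested probe sets of 26 receptor genes. Black circles mark the probe set of highest mean signal of a gene and grey diamonds its others, and neighbouring probe sets of Rora, Nr2c1 and Nr2f2 lie on opposite sides of 0. The only Rora probe set above 0 passed the filter through the knockout arrays alone.

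Of 13 receptors with several tested probe sets, 9 (69.2%) had differences of both signs, against 44.3% of 6113 such genes. They were Thra, Ppara, Rora, Rxra, Nr2c1, Nr2c2, Nr2f2, Esrra and Nr4a2, and many of the differences were close to 0. For Rora the second sign came only from the probe set kept through the knockout arrays. More probe sets give more chances of both signs, and the shares were not matched for their number, which was 7 for Rora. In Nr1d2, Nr2f6 and Nr5a2 all tested probe sets were higher in knockout lungs, and none passed. The 2 tested Esrrb probe sets differed by 0.08 (SE 0.55) and 0.38 (SE 0.45) on the log2 scale. At the first of them the unlogged mean was lower in knockout lungs, so no direction for Esrrb was shown.

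The steroid receptors gave little signal. Nr3c2, the mineralocorticoid receptor, averaged 88.8 ± 7.33 in knockout and 87.3 ± 22.3 in wild-type lungs (log2 0.05, SE 0.31). Esr1, the estrogen receptor alpha, had signals of 6.37, 95 and 127 in knockout lungs and 90.6, 123 and 81.7 in wild-type lungs, and the 1 low array set its difference of −1.19 (SE 0.98, adjusted p = 0.64). Esr2 and Pgr, the receptor of progesterone, were below the filter, at most 78.0 and 75.2 on any array. The estrogen-related receptors bind no estrogen and control mitochondrial genes. Esrra averaged 446 ± 79.9 in knockout and 393 ± 58.5 in wild-type lungs. Esrrb, known from stem cells and placenta, averaged 74.0 ± 35.0 in knockout and 75.0 ± 41.0 in wild-type lungs (log2 0.08, SE 0.55). Esrrg, known from heart and kidney, averaged 79.0 ± 12.01 in knockout and 70.2 ± 15.8 in wild-type lungs.

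Of the remaining orphan receptors, Nr4a2, an immediate early receptor, averaged 125 ± 9.39 in knockout and 142 ± 22.1 in wild-type lungs. Nr6a1, a germ cell factor, averaged 80.3 ± 25.9 in knockout and 68.2 ± 20.1 in wild-type lungs. Nr0b2, a receptor without a DNA-binding domain that represses others, spread over 7.15-fold between arrays.

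The other untested receptors had low and scattered signals at their probe sets of highest mean. Rorb, known from retina and brain, ranged from 18.8 to 50.1 in knockout and from 4.92 to 50.4 in wild-type lungs. Hnf4g, known from intestine and kidney, ranged from 2.12 to 18.9 in knockout and from 2.79 to 17.2 in wild-type lungs. Nr2e1, a factor of neural stem cells, ranged from 8.82 to 54.9 in knockout and from 17.1 to 23.5 in wild-type lungs. The groups overlapped for each of these 3 genes. Nr4a3, an immediate early receptor, ranged from 13.3 to 64.4 in knockout and from 18.9 to 97.5 in wild-type lungs. Nr5a1, the steroidogenic factor of adrenal and gonad, ranged from 20.2 to 45.1 in knockout and from 2.99 to 58.1 in wild-type lungs. Nr0b1, its repressor, ranged from 6.47 to 20.3 in knockout and from 7.19 to 27.1 in wild-type lungs. These groups overlapped too.

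Among receptors known from liver, Hnf4a, a master regulator of hepatocytes, had 4 probe sets. Of these, 3 were high on the same 2 arrays as albumin. At 1427001_s_at the signals were 222, 14.9 and 29.9 in knockout lungs and 8.7, 185 and 15.4 in wild-type lungs. At 1421983_s_at they were 136, 27.6 and 11.8 in knockout lungs and 4.88, 78.0 and 29.5 in wild-type lungs. At 1427000_at they were 97.2, 2 and 17.6 in knockout lungs and 0.747, 104 and 10.8 in wild-type lungs. Knockout replicate 1 and wild type replicate 2 were thus both at least 2-fold above every other array at all 3, all of which lay below the filter. That pattern held in 3 of the 102 receptor probe sets (2.94%) and in 0.746% of all 45037 probe sets that were not controls. It was looked for after the values were seen.

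The fourth Hnf4a probe set, 1450447_at, did not follow the liver arrays. It had signals of 84.1, 97.0 and 98.3 in knockout lungs, against 71.2, 28.9 and 44.2 in wild-type lungs. All knockout arrays lay above all wild-type arrays, at 2.07 times the wild-type level (log2 1.05, SE 0.41, adjusted p = 0.316, exact permutation p = 0.1). It passed the filter through the knockout arrays alone, since the wild-type mean of 48.1 lay below it, and a probe set kept in that way is bound to differ. Without knockout replicate 1 and wild type replicate 2 the difference was 0.80 (unadjusted p = 0.145). Nr1i3, the constitutive androstane receptor CAR of liver, had signals of 83.8, 7.53 and 11.7 in knockout lungs and 5.83, 9.94 and 6.6 in wild-type lungs, high on knockout replicate 1 alone. Nr5a2, which controls bile acid genes in liver and is also active in pancreas, had 445, 179 and 115 in knockout lungs and 117, 151 and 155 in wild-type lungs at 1420410_at. At its probe set of highest mean signal, 1456521_at, no array stood apart, with means of 208 ± 19.5 in knockout and 162 ± 31.7 in wild-type lungs (log2 0.37, adjusted p = 0.512). These probe sets other than 1450447_at and 1456521_at were chosen after their values were seen.

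**Figure D3:**
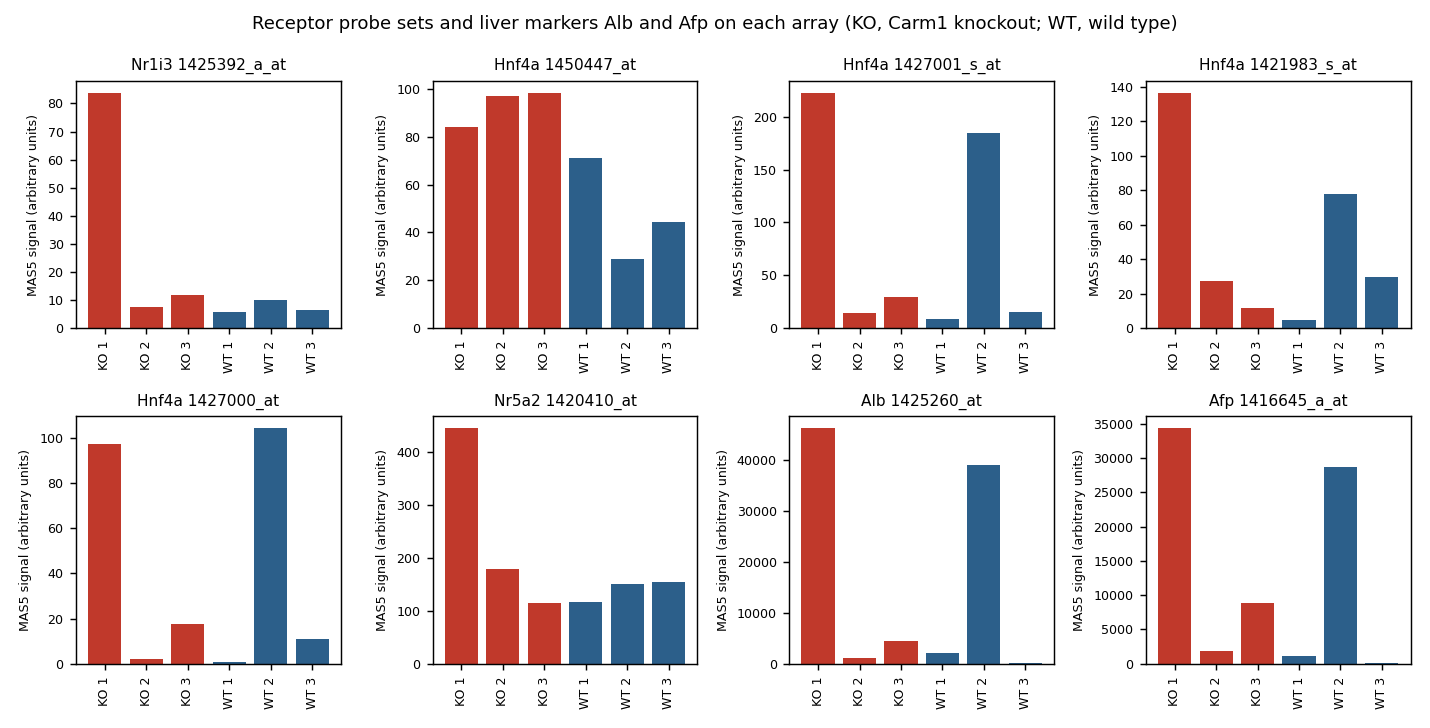
Signals of receptor probe sets known from liver and of the liver markers Alb and Afp on each array, knockout arrays (KO, red) left of wild-type arrays (WT, blue), in arbitrary units with axes from 0. The 3 other Hnf4a panels and both marker panels are high on KO 1 and WT 2, whereas Hnf4a 1450447_at is not.

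Receptor genes may themselves carry the half-site that receptors read. The letters AGGTCA, or TGACCT for the other strand, were searched in the 250 bases before the annotated start of transcription in RefSeq promoters of the build GRCm38.p6. They were found for 8 of the 36 receptor genes matched by symbol, 22.2%, for 15.8% of all 27025 genes in the promoter table and for 14.6% of the 14452 of them with a probe set. Thra, Nr5a1 and Hnf4g were the 3 receptors not matched. A match is a description and not a binding site, and these data hold no measurement of binding. The stretches of 4 receptors described above are shown with the half-site in capitals, each on the strand of its gene.
Nr1d2: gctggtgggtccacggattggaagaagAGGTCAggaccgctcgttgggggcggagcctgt
Rxra: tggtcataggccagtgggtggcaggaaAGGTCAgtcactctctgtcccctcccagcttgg
Nr5a2: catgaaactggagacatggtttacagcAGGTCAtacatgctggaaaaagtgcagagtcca
Thrb: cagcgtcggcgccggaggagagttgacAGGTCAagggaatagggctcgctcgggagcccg
They lie at chr14:18239151-18239210 (minus strand) for Nr1d2, chr2:27709217-27709276 (plus strand) for Rxra, chr1:136960480-136960539 (minus strand) for Nr5a2 and chr14:17660749-17660808 (plus strand) for Thrb. The half-site of Nr1d2 began 77 bases before the start, that of Rxra 48, that of Nr5a2 64 and that of Thrb 184. Rxra holds a second copy, on the other strand, that began 87 bases before the start. None of these 4 genes passed the test of genotype.

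The genes around the receptors were then read from lists of coregulators, ligand enzymes and target genes, 13 lists with 203 genes, of which 148 were tested. Again 0 passed over all probe sets, with a smallest adjusted p of 0.0852. At an unadjusted p under 0.05 were 33 of 148, 11 higher and 22 lower, where 9.14% of all genes were higher and 7.36% lower. These shares are also the background for the counts of each list below, many of which rest on few genes.

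The coregulators, through which CARM1 meets receptors, differed little. Of 24 coactivators 2 were higher and 1 lower at an unadjusted p under 0.05, with a median of 0.04 that was −0.03 without wild type replicate 1. Trim24 averaged 898 ± 76.3 in knockout and 658 ± 96.0 in wild-type lungs, but its second probe set differed by −0.10. Prmt1, the main asymmetric arginine methyltransferase, averaged 3706 ± 132 in knockout and 3055 ± 354 in wild-type lungs. Ep300, the acetyltransferase p300, averaged 1224 ± 83.6 in knockout and 1471 ± 103 in wild-type lungs (log2 −0.26, adjusted p = 0.332). Of 14 corepressors 1 was higher and 1 lower. These were Hr, at 129 ± 37.5 in knockout and 74.2 ± 22.2 in wild-type lungs, and Nrip1 (RIP140), at 1556 ± 119 in knockout and 1882 ± 161 in wild-type lungs. Other tested probe sets of Nrip1 differed by −0.11, −0.16, −0.03 and −0.44, none at an unadjusted p under 0.05. Tbl1x, a subunit of the corepressor complex, had the third smallest p, with a difference of −0.15.

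Genes of the mineralocorticoid axis had the lowest median. Of 10 tested, 7 were lower at an unadjusted p under 0.05 and 0 higher, with a median of −0.50 against 0.03 for all genes, while the receptor gene Nr3c2 itself differed by 0.05. Tsc22d3, a leucine zipper gene induced by corticosteroids, had signals of 2133, 2778 and 2446 in knockout lungs, against 4740.2, 4042 and 4344 in wild-type lungs (adjusted p = 0.0852), while 2 further probe sets of the gene gave −0.72 and 0.03. Scnn1a, a subunit of the epithelial sodium channel, had signals of 574, 855 and 364 in knockout lungs, against 1449.97, 1446 and 1252 in wild-type lungs (log2 −1.29, adjusted p = 0.13). Nedd4l, a ubiquitin ligase that removes the channel from the membrane, averaged 3315 ± 455 in knockout and 4796 ± 511 in wild-type lungs, and 1 of its 4 other probe sets differed by 0.16. The groups did not overlap for these 3 genes. Several members are also targets of glucocorticoids, and earlier results of these data were known when the list was drawn up. Over the alternatives the list median ran from −0.58, without knockout replicate 1 and wild type replicate 2, to −0.38. Aqp5 and Ager, the 2 of 12 lung epithelial markers at an unadjusted p under 0.05, were lower in the same lungs. They do not stand for all type I cell markers, and their part in this result was not tested.

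LXR targets had a median of −0.19, with 4 of 14 lower and 1 higher at an unadjusted p under 0.05. The median was −0.32 without knockout replicate 1, −0.10 without knockout replicate 3 and −0.33 without knockout replicate 1 and wild type replicate 2. The 3 of smallest p were lipid synthesis genes. Fasn averaged 3432 ± 351 in knockout and 5371 ± 565 in wild-type lungs (adjusted p = 0.0955), Scd2 16543 ± 1553 in knockout and 22375 ± 1703 in wild-type lungs, and Scd1 8626 ± 3810.4 in knockout and 17485 ± 2775 in wild-type lungs. The sterol exporters Abca1 and Abcg1 differed by −0.33 and −0.30 with an adjusted p of 0.411 and 0.388. Of the 14 targets 9 were lower and 5 higher, and the 1 higher at an unadjusted p under 0.05 was Pltp (0.26). LXR activity itself was not tested. Nr1h3 itself differed by −0.13.

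PPAR targets went both ways, with 2 of 25 higher and 3 lower at an unadjusted p under 0.05 and a median of 0.02 that turned negative in several alternatives, to −0.12 without wild type replicate 3. The fatty acid binding proteins were the 2 higher ones. Fabp4 had signals of 1324, 2120 and 2952 in knockout lungs and 1405, 1339 and 752 in wild-type lungs, so the groups overlapped through knockout replicate 1. Fabp3, which is known from heart and skeletal muscle, had 559.8, 1259 and 545 in knockout lungs and 431, 482 and 188 in wild-type lungs, and was highest on the array with the highest heart sum. Pdk4, a brake on glucose oxidation, had 249, 608 and 361 in knockout lungs, against 656, 618 and 684 in wild-type lungs (log2 −0.78, adjusted p = 0.285).

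Targets of ROR and REV-ERB had 3 of 13 lower and 0 higher at an unadjusted p under 0.05, with a median of −0.26, and −0.15 without wild type replicate 1. Tef, a clock output factor, averaged 1407 ± 131 in knockout and 2104 ± 157 in wild-type lungs (adjusted p = 0.113), and 1 of its other 2 probe sets was 0.33 higher. Per2, a repressor of the clock, averaged 429 ± 111 in knockout and 662 ± 54.7 in wild-type lungs. Npas2, which RORs activate and REV-ERBs repress, averaged 234 ± 38.8 in knockout and 345.5 ± 36 in wild-type lungs, but its second probe set differed by 0.35. The sources give no hour of collection.

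In the thyroid hormone axis, 2 of 9 tested genes were higher and 1 lower at an unadjusted p under 0.05. Klf9, a factor induced by thyroid hormone and by glucocorticoids, had signals of 2695, 3895 and 2568 in knockout lungs, against 6602, 6000 and 5684 in wild-type lungs (log2 −1.02, adjusted p = 0.0909), and all 6 of its tested probe sets were lower. Crym, a thyroid hormone binding protein of the cytosol, had 124, 149 and 241 in knockout lungs, against 92.5, 60.7 and 79.9 in wild-type lungs (adjusted p = 0.216). Hr, a corepressor gene that thyroid hormone induces in brain, was the second higher gene. The list median of 0.61 rests on few genes and was 0.09 without wild type replicate 3. It includes Ttr, a liver product at 36514, 453 and 2235 in knockout lungs and 618, 21407 and 8.87 in wild-type lungs.

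**Figure D4:**
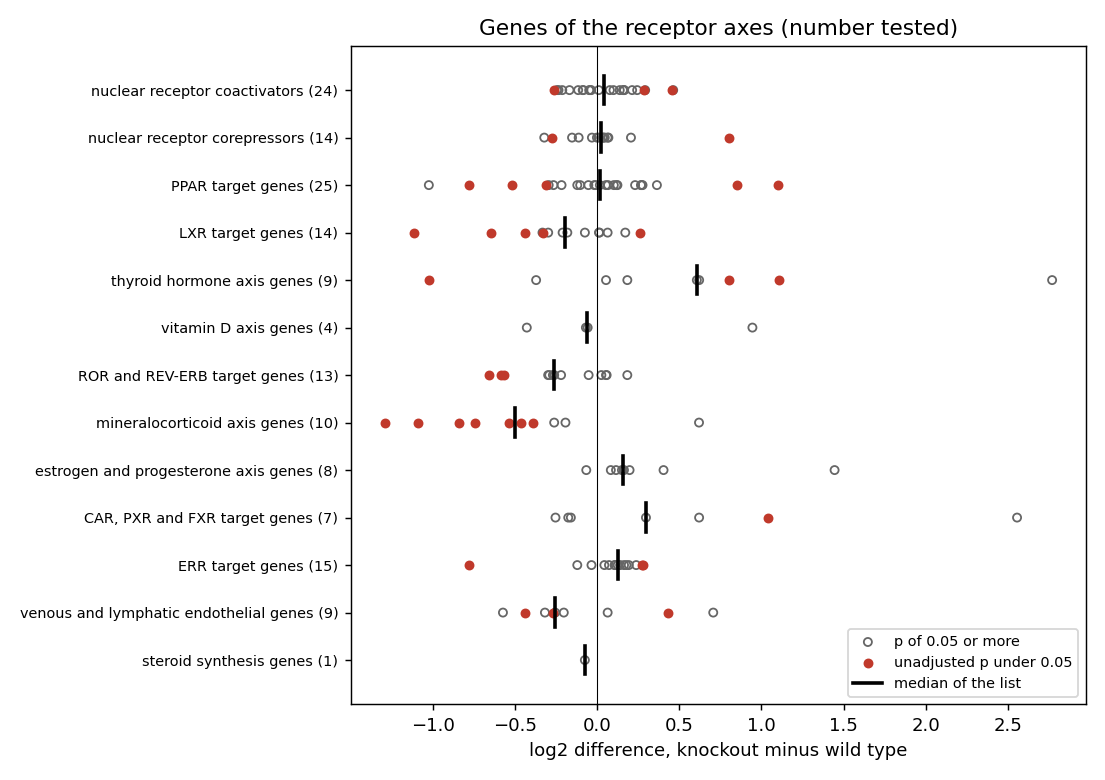
Log2 difference, Carm1 knockout minus wild type, of each tested gene in 13 lists of receptor coregulators, ligand enzymes and targets, with filled red points at an unadjusted p under 0.05 and a black bar at each median. Mineralocorticoid axis genes have the lowest median, −0.50, and none of the points passed the adjusted threshold.

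Targets of the liver receptors CAR, PXR and FXR were mostly below the filter, with 7 of 15 tested. Cyp2b10, the classic target of CAR, had signals of 169, 166 and 104 in knockout lungs, against 78.9, 48.1 and 87.8 in wild-type lungs (log2 1.04, adjusted p = 0.259), and its 2 other tested probe sets differed by 0.23 and 0.61. Without knockout replicate 1 and wild type replicate 2 the difference was 0.66 (adjusted p = 0.604). Cyp3a11, the classic target of PXR, was high on both arrays with liver markers, at 3462, 44.9 and 171 in knockout lungs and 17.4, 439 and 17.2 in wild-type lungs. Abcc3, the third named gene, differed by −0.17.

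Targets of the estrogen-related receptors, which are mitochondrial enzymes, had 2 of 15 higher and 1 lower at an unadjusted p under 0.05, with a median of 0.13 (0.07 with median centring, 0.08 without wild type replicate 3) and 12 of 15 higher. Mdh2, a dehydrogenase of the citric acid cycle, averaged 8551 ± 139.9 in knockout and 7088 ± 222 in wild-type lungs, but differed by 0.01 at its second probe set. Idh3a averaged 2820.2 ± 400.5 in knockout and 2312 ± 152 in wild-type lungs. The 1 lower gene was Pdk4, described above.

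Venous and lymphatic genes, set beside Nr2f2, had 1 of 9 higher and 2 lower at an unadjusted p under 0.05. Aplnr, a receptor of venous and capillary endothelium, averaged 12122 ± 826 in knockout and 9067 ± 1667 in wild-type lungs. Lyve1, a lymphatic hyaluronan receptor, averaged 4086 ± 653 in knockout and 5516 ± 620.3 in wild-type lungs, and Nrp2 1105 ± 49.8 in knockout and 1334 ± 97.4 in wild-type lungs. Other tested probe sets of Nrp2 differed by −0.03, −0.21 and 0.29, none at an unadjusted p under 0.05. The list median was −0.25, and −0.08 without wild type replicate 1.

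The vitamin D and the sex steroid lists had no gene at an unadjusted p under 0.05 among 4 and 8 tested. Trpv6, Camp and S100g had the smallest p of the vitamin D list, with differences of −0.43, 0.94 and −0.07. For Camp the SE was 0.76, and its difference was 0.06 without knockout replicate 1. Ltf, Wnt4 and Hsd17b4 had the smallest p of the estrogen and progesterone list, with differences of 1.44, 0.40 and 0.12, and for Ltf the SE was 0.69. Of the genes of steroid synthesis, only Fdx1 was tested, at −0.07, and the other 8 measured, markers of adrenal and gonad among them, lay below the filter.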

How the data were processed

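The authors deposited 1 intensity per probe set and array, unlogged. Per the submitters' processing notes the software was MAS5, with no version stated. The 2% trimmed mean was 500 on every array, so the authors had scaled each array to 1 level and no further normalization was applied. Control probe sets (64) were left out. Symbols came from the platform annotation, updated through the gene ID in RefSeq GRCm38.p6. Of the probe sets, 34945 had 1 symbol, 932 several and 9160 none, and only those with 1 were named.

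Log2 values (no pseudocount, since none was 0 or below) were tested with limma 3.58.1 in R 4.3.3 (lmFit, eBayes with an intensity trend, two-sided) over all 27022 probe sets above the 40th percentile of mean signal, adjusted by Benjamini and Hochberg, at a threshold of 0.05. All differences are knockout minus wild type on the log2 scale, and folds are ratios of geometric means. Means and SDs were taken over the 3 unlogged signals of a group. A gene was represented by its probe set of highest mean. The test was tested on simulated data of the 27022 probe sets, where over 5 runs it recovered 32.9% of 200 changes of 2-fold and 77.1% of 4-fold, with 2.8 and 4.8 false calls a run. The number of arrays limits the precision.

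The receptors and lists were chosen with earlier results of these data known. Array by array values were given for receptors with an unadjusted p under 0.05 or groups that did not overlap, other members by means or ranges, and from each list the 3 genes of smallest p were named. Other names were chosen after their values were seen. Alternatives covered the filter, normalization, pseudocount, variance model, probe set choice, a replicate block, each array left out, and arrays with bacterial or liver signal left out.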

Additional observations from a re-analysis of the deposited data

How the results depend on the processing

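No receptor probe set passed the adjusted threshold in limma under any of the 16 alternatives that give this count. The count of receptor probe sets at an unadjusted p under 0.05, 5 as reported, was 2 with the stricter filter (60th percentile). It was 2 without knockout replicate 1 and wild type replicate 2 together (chosen after seeing the data), and 1 to 4 when 1 array was left out. The arrays without added bacterial RNA include only 1 wild-type array, replicate 2, so no further count is given for them. Over all probe sets the count past the adjusted threshold, 8 as reported, was 0 without an intensity trend and 40 with robust variance. It was 58 without knockout replicate 1 and wild type replicate 2, and 0 to 13 when 1 array was left out. Of the list genes 2 passed with robust variance, Klf9 (adjusted p = 0.0483) and Tsc22d3 (adjusted p = 0.0395), and 0 under the other settings. Carm1 stayed lower in knockout lungs in each alternative, from −1.02 to −0.68.

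With the replicate block, 0 probe sets passed over all and 1 receptor probe set had an unadjusted p under 0.05, and the difference of Carm1 stayed at −0.89. Deviations of arrays with the same number from their group means correlated at −0.14, −0.38 and −0.0056. Such deviations are bound to each other by the group means, so these values cannot show whether the replicate numbers pair the samples.

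Among the arrays without added bacterial RNA, replicate 2, with its high liver sum, was the only wild-type array. Named genes that changed sign there were Camp (−0.27), S100g (0.083), Hsd17b4 (−0.13) and Cyp3a11 (−0.56). Of the wild-type arrays, replicate 2 had the highest signal of Camp, Hsd17b4 and Cyp3a11 and the lowest of S100g. S100g also changed sign without knockout replicate 3 (0.039) or wild type replicate 1 (0.053). With 1 array left out, S100g ran from −0.22 to 0.053. The cause was not tested. Of the 41 named probe sets 25 moved by over 1.5 times in at least 1 alternative. Among them Pdk4 was −0.48 without knockout replicate 1, Scd1 −0.73 without knockout replicate 3, Idh3a 0.17 without knockout replicate 3, and Fabp3 0.70 without knockout replicate 2 and 0.67 without wild type replicate 3. Among the arrays without added bacterial RNA, Hnf4a was 1.68, Hr 1.24, Prmt1 0.47, Lyve1 −0.27, Nrip1 −0.16 and Nrp2 −0.15. The named receptor probe sets kept their sign in every setting that tested them.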

Other observations

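Without knockout replicate 1 and wild type replicate 2, 58 probe sets passed the adjusted threshold by limma, against 8 with all arrays, though only 4 arrays remained. Of the receptor probe sets 0 passed in either case. Of the 41 named probe sets, 19 had a larger and 22 a smaller difference in those 4 arrays. Fabp4 differed by 1.28 in those 4 arrays against 0.85 in all, and Fabp3 by 1.54 against 1.10. Scd1 differed by −1.30 against −1.11, with an adjusted p of 0.0961 in the 4 arrays. Differences that were smaller there include Pdk4 (−0.52 against −0.78), Per2 (−0.50 against −0.66), Aplnr (0.28 against 0.43), Ep300 (−0.16 against −0.26) and Klf9 (−0.95 against −1.02).

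Hsd3b1, a steroid synthesis enzyme also present in liver, had signals of 448, 11.3 and 6.59 in knockout lungs and 3.78, 289 and 4.65 in wild-type lungs. The heart natriuretic peptide Nppa had 38.8, 4654 and 220.3 in knockout lungs and 9.81, 3.83 and 2.00 in wild-type lungs.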
